A study of Homo sapiens with 5 samples.

Results

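Reoxygenated breast cancer cells were compared with cells of the same line that were never placed in low oxygen. The line, MDA-MB-231, is an established human triple-negative breast cancer line of mesenchymal character. The comparison used 3 of the 5 libraries of the series, with 1 library per condition. They were cells kept at 20% O2 for 1 day, cells kept at 20% O2 for 10 days, and reoxygenated cells that were held at 1% O2 for 10 days before a further 10 days at 20% O2. The labels name no other agent and no genetic change in any of these groups. Both remaining libraries, from cells kept at 1% O2 for 1 or 10 days, served to show where a level lay during hypoxia. The reoxygenated cells had been followed for 20 days in all, against 1 and 10 days for the 20% O2 libraries, so that time in culture and past hypoxia cannot be told apart.

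A gene entered the comparison when it reached 5 CPM (read counts as a rate of the library total, the usual CPM scale, scaled between libraries with TMM factors) in at least 1 of the 3 libraries, which 11184 of 26475 gene rows did. A call of higher or lower required that its log2(CPM + 1) differed from each 20% O2 library, taken alone, by at least 1 in the same direction, which is 2-fold. This size rule has no test. Separately, edgeR's quasi-likelihood test set the reoxygenated library against both 20% O2 libraries, with Benjamini-Hochberg adjustment over all genes compared, and "rose" and "fell" are used only of genes with an adjusted p under 0.05. Whether the libraries came from separate cultures is not stated in the labels, so these p-values measure only the spread between the libraries at hand. The test treated both 20% O2 libraries as replicates, although they differ in time in culture. Its 1 residual degree of freedom therefore holds that time difference. The rest of the variance estimate was borrowed from other genes (median prior degrees of freedom 11.07). The p-values and SEs thus do not rest on replicates of a condition.

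Low oxygen stabilizes the hypoxia-inducible factors (HIFs), which switch on genes of glycolysis, angiogenesis and pH control, and return of oxygen lets the HIF proteins be destroyed again. Interferon-stimulated genes are an antiviral programme that is switched on when cells sense foreign or misplaced nucleic acid or receive interferon. The aryl hydrocarbon receptor is a ligand-activated factor that shares its partner ARNT with the HIFs and drives cytochrome P450 genes of the CYP1 family.

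Library totals ran from 7719809 counts, in the reoxygenated library, to 12544961. A read of the reoxygenated library was worth 0.123 CPM, and 3 counts, the limit that an absence of counts allows, 0.368 CPM. Identity markers of the line were present in every library, with the mesenchymal intermediate filament gene VIM at 1097 CPM after reoxygenation, although SPARC stayed at or below 1.84 CPM. Of the luminal markers, ESR1 and PGR did not exceed 0.383 CPM. Of 20 markers of other cell types, 2 reached 5 CPM in the compared libraries, CD68 and PDGFRB, and CD3E, LYVE1, HBB, ADIPOQ and MLANA were among those listed at 0 in all 5 libraries. The 20 markers together summed to 213 CPM after reoxygenation and to 164 and 193 CPM at 20% O2, most of it CD68.

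Few genes met the size rule or passed the test, and both missed part of the 2-fold changes placed in well-counted genes of simulated data. By the size rule, 56 genes were higher (0.501% of those compared) and 18 were lower (0.161%). The same rule applied once to the pair of 20% O2 libraries, day 10 against day 1, put 104 genes higher (0.93%) and 34 lower (0.304%). In edgeR's quasi-likelihood test 38 genes rose (0.34%) and 8 fell (0.0715%), and 1428 genes had an unadjusted p under 0.05. Of the 38 that rose, 23 were also called higher, and all 8 that fell were also called lower. DESeq2 and limma-voom both called 29 of the 38 as well, and 4 of the 8. Just inside the size rule lay TRPV1, with a nearer difference of 1.005, and just outside it CFAP44, at 0.998. On the lower side these were SNCAIP at -1.001 and SMG1P5 at -0.988. The median difference of all genes compared was -0.07. Scaled by library totals alone, without TMM factors, it was 0.07 and the size rule put 86 genes higher and 11 lower, so that the higher share of calls moved from 75.7% to 88.7%. All 56 genes stayed among the 86. Against a single 20% O2 library, 239 genes were higher (2.14%) and 70 lower (0.626%) for day 1, and 77 higher (0.688%) and 35 lower (0.313%) for day 10. In 7 of the 56 higher and 2 of the 18 lower genes the 20% O2 libraries themselves differed by at least 1, PTGES, DMBT1, LCN2 and SLFN5 among them.

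**Figure D1:**
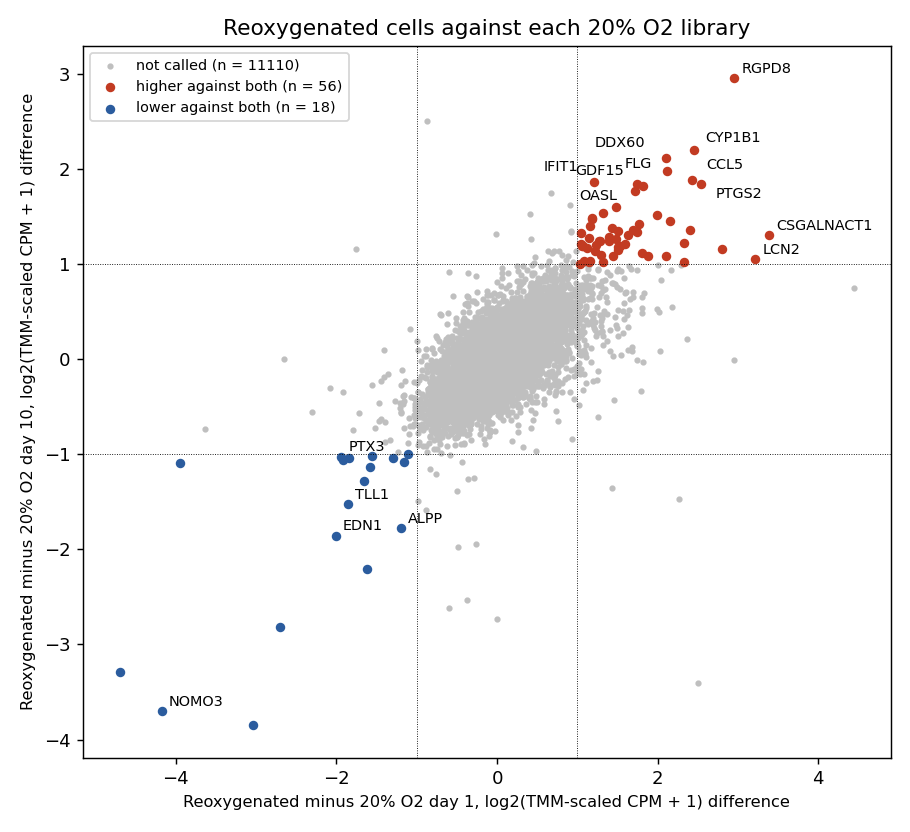
Difference of the reoxygenated library from the 20% O2 day 1 library (horizontal) and from the 20% O2 day 10 library (vertical), in log2(CPM + 1), 1 point per gene. Dotted lines mark the size rule, the 56 genes called higher lie at the upper right in red and the 18 called lower at the lower left in blue, and the other 11110 genes are grey.

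In 36 of the 56 higher genes (64.3%) the reoxygenated library had the highest level of all 5 libraries. Over all genes compared that share was 13.4%. The size rule already puts a higher gene above both 20% O2 libraries, so these shares are not alike. Of all genes compared, 3210 lay above both, and the 1498 with the reoxygenated library highest of 5 are among them. In the remaining 20 of the 56 a 1% O2 library stood higher still. The called interferon-stimulated genes were among the 36, while several stress and inflammatory genes lay between their levels at 20% O2 and after 10 days at 1% O2.

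Interferon-stimulated genes had the largest number of called members of any list. Of 56 genes in the list, 44 were compared, 11 were called higher (25.0%, beside 0.501% of all genes) and none lower, and 9 rose. The list, and its members DDX60 and IFIT1 as markers, were chosen with earlier results of these data known, so these shares are description only. Above both 20% O2 libraries lay 36 of the 44 (81.8%, beside 28.7% of all genes compared). The median difference of the 44 was 0.57 from the 20% O2 library of day 1 and 0.50 from that of day 10, while the median difference between the 20% O2 libraries themselves was -0.05. In all 11 called genes the reoxygenated level was the highest of the 5 libraries.

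DDX60, a helicase that aids the viral RNA sensor RIG-I (chromosome 4, 168216294 to 168325979), stood at 16.3 and 16.2 CPM in the 20% O2 libraries of day 1 and day 10. It was at 14.7 and 27.1 CPM in the 1% O2 libraries of day 1 and day 10 and at 73.7 CPM after reoxygenation. The reoxygenated library was the highest of the 5, and 10 days at 1% O2 came next, above the other 3. It was 4.52-fold the level at day 1 (95% interval of the count ratio 3.80 to 5.40, counting error only) and 4.54-fold that at day 10 (3.85 to 5.36). DDX60 rose by a log2 change of 2.26 (SE 0.19, edgeR adjusted p = 0.000285).

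The IFIT genes encode proteins that bind foreign RNA and lie side by side on chromosome 10. IFIT1, IFIT2 and IFIT3 rose, and IFIT5 did not. IFIT2 had 69.4 and 63.8 CPM at 20% O2, 64.0 and 56.4 CPM at 1% O2, and 195.7 CPM after reoxygenation, a log2 change of 1.64 (SE 0.16, edgeR adjusted p = 0.000821). IFIT3 had 105.2 and 89.1 CPM at 20% O2, 104.8 and 64.6 CPM at 1% O2, and 236.9 CPM after reoxygenation (log2 change 1.37, SE 0.17, edgeR adjusted p = 0.00298). For IFIT1 the 20% O2 libraries lay further apart, at 53.01 and 33.3 CPM, with 40.3 and 29.1 CPM at 1% O2 and 123.5 CPM after reoxygenation (log2 change 1.61, SE 0.23, edgeR adjusted p = 0.00858). Each of the 3 had its lowest level after 10 days at 1% O2 and its highest after reoxygenation. The fourth member compared, IFIT5, was at 77.3 and 65.7 CPM at 20% O2 and at 61.9 CPM after reoxygenation (edgeR adjusted p = 0.83).

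OASL, an antiviral protein of the oligoadenylate synthetase family, had 10.2 and 9.41 CPM at 20% O2, 8.23 and 8.05 CPM at 1% O2 and 36.4 CPM after reoxygenation (log2 change 1.98, edgeR adjusted p = 0.00288). IFIH1, the double-stranded RNA sensor MDA5, had 5.96 and 7.83 CPM at 20% O2, 5.64 and 9.78 CPM at 1% O2, and 21.6 CPM after reoxygenation (1.73, edgeR adjusted p = 0.0256). IFI44 had 17.3 and 14.0 CPM at 20% O2, 17.0 and 6.14 CPM at 1% O2, and 40.6 CPM after reoxygenation (1.46, edgeR adjusted p = 0.0192). In all 3 the reoxygenated library was highest and the other 4 lay well below it. The antiviral neighbours SAMD9L and SAMD9 also rose, with log2 changes of 1.62 and 1.23 (edgeR adjusted p = 0.0387 and 0.0278), SAMD9 without reaching the size rule.

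OAS2, EPSTI1 and MX2 were called higher without passing the test, with edgeR adjusted p = 0.0777, 0.247 and 0.255. OAS2, the largest of them after reoxygenation, went from 4.88 and 5.33 CPM at 20% O2 to 14.5 CPM. ISG15, a ubiquitin-like modifier, had 18.3 and 13.3 CPM at 20% O2 and 35.3 CPM after reoxygenation (edgeR adjusted p = 0.0659), and DDX58, which encodes RIG-I, 78.1, 72.1 and 120.3 CPM in the same order (0.0777). The lowest members were SP110, TRIM14, PLSCR1, TRIM25 and IFIT5, which lay below both 20% O2 libraries. TRIM14 had 99.96 and 96.3 CPM there and 67.3 CPM after reoxygenation (edgeR adjusted p = 0.308). The other 12 listed genes stayed under 5 CPM in the libraries compared, among them RSAD2 (0.39, 0.75 and 1.84 CPM), CXCL10 (0.976, 0.416 and 1.47 CPM) and TNFSF10, which encodes the death ligand TRAIL. TNFSF10 reached 124.0 CPM after 10 days at 1% O2 but was at 1.76 and 3.42 CPM at 20% O2 and at 3.07 CPM after reoxygenation.

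**Figure D2:**
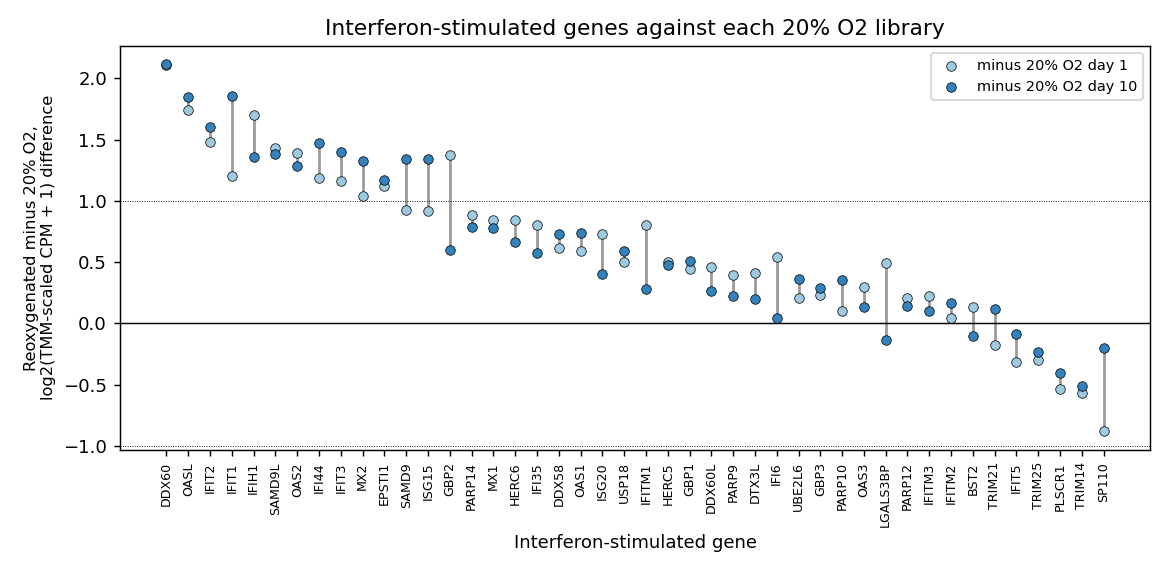
Difference of the reoxygenated library from each 20% O2 library, in log2(CPM + 1), for the 44 interferon-stimulated genes compared, sorted by mean difference. Light points are against day 1 and dark points against day 10, dotted lines mark the size rule, and 11 genes from DDX60 to EPSTI1 have both points above 1.

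The promoters of the interferon-stimulated genes are shown as a description of a sequence that many members of the list share, called or not. The list was written of known interferon-stimulated genes, so the sequence is no separate evidence on the differences seen here. The core of the interferon-stimulated response element, GAAA, any 2 bases and GAAA again, was searched on both strands in the 250 bases upstream of 1 start site per gene in the RefSeq promoter table (GRCh38.p14). For DDX60 that start site lies inside the gene extent given above, which reaches further upstream. It was found in 2.33% of the 9237 promoters of genes compared that the RefSeq table holds. Of the 7 called interferon-stimulated genes with an entry, 6 held it (85.7%), as did 17 of the 29 that were not called (58.6%). The difference between those shares was not tested. Of all genes called higher, 7 of 38 with an entry held it (18.4%), 6 of the 7 being those members of the list, and of those called lower 0 of 15. The stretches below are written 5′ to 3′ on the gene's strand, and capitals mark the core, or its reverse complement where it lies on the other strand.
DDX60: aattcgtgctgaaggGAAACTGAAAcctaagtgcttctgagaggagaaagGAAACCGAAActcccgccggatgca
EPSTI1: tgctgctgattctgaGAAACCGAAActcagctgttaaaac
IFI44: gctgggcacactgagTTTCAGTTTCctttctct
IFIT1: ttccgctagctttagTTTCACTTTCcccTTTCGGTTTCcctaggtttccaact
IFIT3: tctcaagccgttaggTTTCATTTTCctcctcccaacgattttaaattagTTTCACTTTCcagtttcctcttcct
They lie at chr4:168318781-168318855 (minus strand), chr13:42992267-42992306 (minus), chr1:78649756-78649788 (plus), chr10:89392492-89392544 (plus) and chr10:89327826-89327899 (plus), in the order printed. DDX60, IFIT1 and IFIT3 each held 2 matches, IFI44 and EPSTI1 held 1, and IFIH1 held 3. Among these and SAMD9L, which held none in this window, EPSTI1 alone did not pass the test.

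Genes that relay the interferon signal, or sense nucleic acid without being in the list above, showed no such difference. Of 30 listed, 26 were compared and none was called or passed the test, with a median difference of -0.04. IRF9, a DNA-binding factor of the response, had 5.96 and 8.58 CPM at 20% O2 and 7.97 CPM after reoxygenation (edgeR adjusted p = 0.859). The reoxygenated level thus lay between the levels of both 20% O2 libraries. STAT2 had 29.5 and 38.5 CPM at 20% O2 and 53.8 CPM after reoxygenation (edgeR adjusted p = 0.172), and the feedback inhibitor SOCS3 58.5, 51.6 and 36.2 CPM (0.319). Class I antigen presentation genes, which interferon can also raise, had 0 of 17 called and 0 passing, and a median difference of 0.23. Above both 20% O2 libraries lay 11 of the 17 (64.7%, beside 28.7% of all genes compared). HLA-B had 104.3 and 148.3 CPM at 20% O2 and 186.0 CPM after reoxygenation (edgeR adjusted p = 0.221).

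CYP1B1 had the lowest p of all genes. This cytochrome P450, which oxidizes oestrogens and aromatic hydrocarbons (chromosome 2, 38067509 to 38076151), had 36.2 and 43.2 CPM at 20% O2 on days 1 and 10, 39.5 CPM at 1% O2 on day 1, 120.3 CPM at 1% O2 on day 10, and 202.8 CPM after reoxygenation. Its level was higher after reoxygenation than after 10 days of hypoxia, and 5.60-fold (5.00 to 6.28) and 4.69-fold (4.25 to 5.19) the levels at 20% O2. It rose by a log2 change of 2.44 (SE 0.17, edgeR adjusted p = 5.69e-05). CYP1A1, the classical target of the aryl hydrocarbon receptor, had 8.98 and 8.66 CPM at 20% O2, 9.62 and 99.0 CPM at 1% O2, and 31.9 CPM after reoxygenation. Its reoxygenated level lay below that of 10 days at 1% O2, unlike that of CYP1B1, and it rose by 1.94 (SE 0.25, edgeR adjusted p = 0.00369). No other gene of this list of 11 passed. Of the 7 compared, 2 were called higher (28.6%, beside 0.501% of all genes) and all 7 lay above both 20% O2 libraries, as 28.7% of all genes did, with AHR itself at 89.1, 89.0 and 110.0 CPM (edgeR adjusted p = 0.353). AHRR, the repressor of the receptor, stayed under 5 CPM, at 1.56, 2.17 and 4.05 CPM.

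The dioxin response core GCGTG, which the receptor with ARNT binds, was found on either strand in 46.9% of all 9237 promoters and in 10 of 38 of genes called higher (26.3%). The hypoxia response core ACGTG, which shares its last 4 letters with it, was in 24.4% and 26.3%. CYP1B1 has no entry in the promoter table, so its promoter was not searched. CYP1A1 held 1 copy of GCGTG, in capitals, at chr15:74725566-74725600 (minus strand, RefSeq GRCh38.p14). The same stretch holds the hypoxia response core on the other strand, left in lower case.
CYP1A1: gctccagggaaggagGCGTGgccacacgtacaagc

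Stress-response genes were split. GDF15, a secreted stress cytokine (chromosome 19, 18386158 to 18389176), had 9.47 and 9.50 CPM at 20% O2, 13.0 and 49.7 CPM at 1% O2, and 36.1 CPM after reoxygenation. Both 20% O2 libraries were nearly equal, and the reoxygenated level was 3.81-fold (3.02 to 4.84) and 3.80-fold (3.05 to 4.76) theirs. GDF15 rose by 2.01 (SE 0.24, edgeR adjusted p = 0.00272). DDIT4, an inhibitor of mTORC1 signalling, had 37.3 and 47.4 CPM at 20% O2, 111.6 and 228.3 CPM at 1% O2, and 129.0 CPM after reoxygenation (log2 change 1.69, edgeR adjusted p = 0.00141). DDIT3, which encodes the factor CHOP, was called higher, at 11.1, 9.83 and 24.0 CPM, with edgeR adjusted p = 0.0628.

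Of the 23 integrated stress response genes compared, 3 were called higher (13.0%, beside 0.501% of all genes), namely GDF15, DDIT4 and DDIT3. The 3 that rose were GDF15, DDIT4 and the cystine transporter SLC7A11, where 0.34% of all genes did. SLC7A11 had 140.1 and 129.8 CPM at 20% O2, 59.1 CPM after 10 days at 1% O2 and 257.5 CPM after reoxygenation (log2 change 1.02, edgeR adjusted p = 0.0194). Other members of the list did not pass the test. ASNS, which makes asparagine, had 76.3, 55.1 and 63.6 CPM (edgeR adjusted p = 0.954) and TRIB3 16.2, 19.7 and 19.3 CPM (0.808), so that neither lay outside the range of the 20% O2 libraries. ATF3 lay below both, at 12.4, 12.3 and 7.97 CPM (0.471). Of 20 endoplasmic reticulum chaperone genes none was called and 2 rose (beside 0.34% of all genes), the chaperone HSPA5 and the degradation factor HERPUD1, with log2 changes of 0.92 and 1.17 (edgeR adjusted p = 0.0343 and 0.0192). HSPA5 had 715.6 and 670.9 CPM at 20% O2 and 1239 CPM after reoxygenation, its highest of the 5 libraries. Among 24 p53 targets 2 were called higher (8.33%, beside 0.501% of all genes), GDF15 and TP53INP1. CDKN1A, the cell cycle inhibitor p21, lay between both 20% O2 libraries at 64.1, 111.3 and 101.2 CPM (edgeR adjusted p = 0.66).

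**Figure D3:**
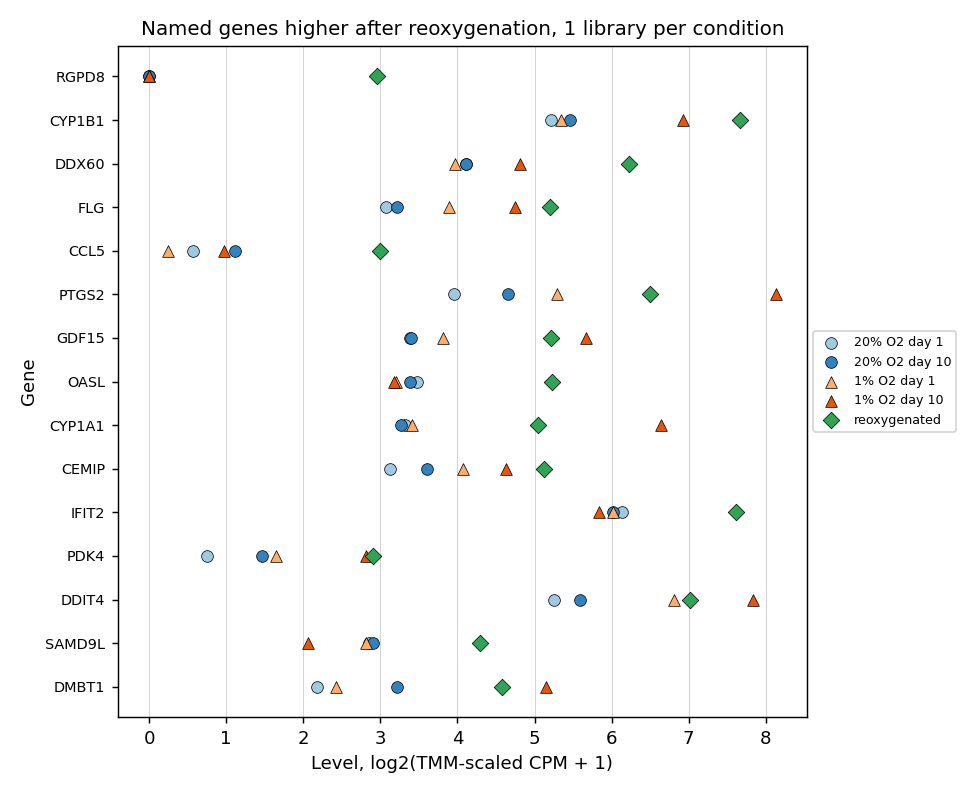
Level in each of the 5 libraries, log2(CPM + 1), of the 15 named genes with the largest difference from the nearer 20% O2 library. Reoxygenated cells (green diamonds) lie right of both 20% O2 libraries (blue circles) for every gene; the 1% O2 day 10 library (dark triangles) lies further right for PTGS2, GDF15, CYP1A1, DDIT4 and DMBT1.

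Of 35 HIF targets outside glycolysis, 2 were called higher, DDIT4 and CCNG2 (5.71%, beside 0.501% of all genes), and none was lower. In edgeR's test 4 rose, those 2 with VEGFA and STC1, where 0.34% of all genes did. Above both 20% O2 libraries lay 13 of the 35 (37.1%, beside 28.7% of all genes) and below both 10 (28.6%, beside 47.9%), with a median difference of 0.05. NDRG1, a standard hypoxia gene, had 65.2 and 84.5 CPM at 20% O2, 555.2 and 3878 CPM at 1% O2, and 61.8 CPM after reoxygenation (edgeR adjusted p = 0.727). CA9, the acid-exporting carbonic anhydrase, had 5.17 and 8.66 CPM at 20% O2, 51.8 and 68.7 CPM at 1% O2, and 3.56 CPM after reoxygenation, the lowest of the 5 (edgeR adjusted p = 0.47). Both had levels in hypoxia that were far above all 3 libraries at 20% O2.

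VEGFA, the main angiogenic growth factor, had 91.5 and 79.9 CPM at 20% O2, 164.5 and 444.2 CPM at 1% O2, and 159.7 CPM after reoxygenation, and rose by 0.98 (SE 0.16, edgeR adjusted p = 0.025). STC1, a secreted glycoprotein, had 66.2 and 92.7 CPM at 20% O2, 168.3 and 783.6 CPM at 1% O2, and 159.7 CPM after reoxygenation (1.09, edgeR adjusted p = 0.0343). CCNG2, which encodes cyclin G2, had 14.6 and 13.4 CPM at 20% O2, 52.0 and 90.6 CPM at 1% O2, and 31.8 CPM after reoxygenation (1.27, edgeR adjusted p = 0.0434). These 3 shared an order of levels, with 10 days at 1% O2 highest and both 20% O2 libraries lowest. HIF1A mRNA had 401.2 and 477.0 CPM at 20% O2, 190.2 and 78.6 CPM at 1% O2, and 610.7 CPM after reoxygenation, the highest of the 5 (edgeR adjusted p = 0.221). EPAS1, which encodes HIF-2 alpha, differed between the 20% O2 libraries themselves, at 54.3 and 134.4 CPM, with 162.4 CPM after reoxygenation (edgeR adjusted p = 0.336).

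Glycolysis genes had 0 of 24 called, a median difference of -0.34 and 18 of 24 (75.0%) below both 20% O2 libraries, beside 47.9% of all genes compared. Among all genes that share went up with level, to 61.9% at a mean of 100 to 300 CPM and 75% at 300 CPM or more. The part of level in the glycolysis difference was not tested. PGAM1, phosphoglycerate mutase, had 610.4, 563.2 and 349.2 CPM (edgeR adjusted p = 0.154). The glucose transporter SLC2A3 lay above instead, with 32.8, 35.0 and 52.2 CPM (0.154). Scaled by library totals, 12 of 24 (50%) lay below both, beside 30.4% of all genes. The histone demethylase KDM3A, an HIF target, had 40.0, 43.2 and 43.2 CPM, and 0 of 18 histone demethylase genes was called.

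Inflammatory genes included some of the largest differences but did not move as a group. Of 33 compared, CCL5, PTGS2 and LCN2 were called higher (9.09%, beside 0.501% of all genes), PTGS2 and IL11 rose, and the median difference was -0.05. PTGS2, the inducible cyclooxygenase COX-2, had 14.6 and 24.2 CPM at 20% O2, 38.0 and 278.6 CPM at 1% O2, and 89.6 CPM after reoxygenation (log2 change 2.29, SE 0.25, edgeR adjusted p = 0.00141). PTGES, which makes prostaglandin E2 from the product of COX-2, had 40.3 and 83.0 CPM at 20% O2, 24.1 and 49.5 CPM at 1% O2, and 177.3 CPM after reoxygenation (1.61, edgeR adjusted p = 0.0343). Both enzymes rose, but PTGS2 was highest after 10 days at 1% O2 and PTGES after reoxygenation.

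CCL5, a T cell chemokine, was counted 5 and 14 times at 20% O2, 2 and 10 times at 1% O2, and 57 times after reoxygenation. Its ratio to the 20% O2 library of day 10 was 5.99 (3.30 to 11.7), and its edgeR adjusted p was 0.0628. IL11, a cytokine of the IL6 family, had 228.1, 219.6 and 416.3 CPM and rose by 0.98 (edgeR adjusted p = 0.025). Several cytokines already differed between the 20% O2 libraries: IL6 had 31.8 and 75.1 CPM there and 134.6 CPM after reoxygenation (edgeR adjusted p = 0.11), and LCN2, a siderophore-binding protein, was counted 1 and 47 times there and 75 times after reoxygenation (0.317). CXCL8 had 435.7, 806.0 and 307.7 CPM (0.221). The median difference of the list was 0.54 between the 20% O2 libraries.

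Among secreted and matrix genes, 1 of 40 rose, the collagenase MMP1, where 0.34% of all genes did, and none was called. MMP1 had 862.2 and 1240 CPM at 20% O2, 1020 and 3415 CPM at 1% O2, and 2283 CPM after reoxygenation (log2 change 1.21, edgeR adjusted p = 0.027). FN1, fibronectin, stood at 248.8, 217.8 and 220.5 CPM (0.994). CEMIP, a hyaluronan-degrading protein outside the list, had 7.71 and 11.2 CPM at 20% O2, 15.8 and 23.7 CPM at 1% O2, and 33.7 CPM after reoxygenation (1.92, edgeR adjusted p = 0.00787). COL7A1, collagen VII and also outside the list, rose by 1.01 (edgeR adjusted p = 0.0434).

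The long noncoding RNAs NEAT1, the scaffold of paraspeckles, and MALAT1, its neighbour on chromosome 11, both rose. NEAT1 had 184.8 and 150.3 CPM at 20% O2, 221.1 and 574.0 CPM at 1% O2, and 421.8 CPM after reoxygenation (log2 change 1.42, SE 0.18, edgeR adjusted p = 0.0033). MALAT1 had 643.7, 778.9 and 1384 CPM at 20% O2 and after reoxygenation (log2 change 1.05, edgeR adjusted p = 0.0254). FLG, filaggrin of the skin barrier, had 7.42 and 8.33 CPM at 20% O2, 13.8 and 25.8 CPM at 1% O2, and 35.7 CPM after reoxygenation (2.26, edgeR adjusted p = 0.00141). The strand setting of the counting is not given in the sources used here, so reads of FLG and its antisense gene FLG-AS1 cannot be told apart, and summed they differed by 1.44 and 1.33. The remaining genes that rose were FUCA1, SLC37A2, GOLGB1, KLHL24, FBXO32, THSD4, CREBRF, F2RL1, DMBT1 and RGPD8, with log2 changes of 0.88 to 2.02 without RGPD8. FUCA1, a lysosomal fucosidase, had 24.6, 25.0 and 60.6 CPM (1.37, edgeR adjusted p = 0.00667) and SLC37A2 22.5, 22.99 and 54.1 CPM (1.34, 0.00858). RGPD8 was counted 55 times after reoxygenation and 0 times in the other 4 libraries. Its transcripts share 90.3% of their 31-base words with another gene, and the RGPD rows together differed by 0.61 and 0.18, so its own row is uncertain.

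EDN1 had the lowest p of the genes that fell and do not share most of their sequence with another gene. It encodes endothelin-1, a secreted vasoconstrictor peptide (chromosome 6, 12230516 to 12297194), and had 69.1 and 62.1 CPM at 20% O2, 76.1 and 95.2 CPM at 1% O2, and 16.4 CPM after reoxygenation. The reoxygenated level stood below those of the other 4 libraries, 4.21-fold under that of day 1 and 3.78-fold under that of day 10. EDN1 fell by 1.91 on the log2 scale (SE 0.22, edgeR adjusted p = 0.00205), and its transcripts share no word with another gene. ALPP, placental alkaline phosphatase, had 65.6 and 98.1 CPM at 20% O2, 81.0 and 361.9 CPM at 1% O2, and 27.96 CPM after reoxygenation, and fell by 1.46 (SE 0.25, edgeR adjusted p = 0.0286). With its near copies ALPPL2 and ALPI, to which reads could be assigned in its place, the sum still differed by -1.21 and -1.86.

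The other 6 genes that fell are rows whose reads are shared with neighbours or copies, at 50% or more of their words: NOMO3, MAGEA2B, COMMD3-BMI1, EEF1E1-BLOC1S5, RPS10-NUDT3 and RPL36A-HNRNPH2. NOMO3 was counted 175 and 144 times at 20% O2 and 0 times after reoxygenation, yet the sum of NOMO1, NOMO2 and NOMO3 differed by 0.31 and -0.06. The 4 joined rows behaved alike, with sums over their loci that differed by -0.52 to -0.18. For MAGEA2B, a testis antigen gene, the result depended on the rows summed. Its own row was counted 89, 114 and 4 times. With its copy MAGEA2 the sum differed by -1.06 and -0.88, and the sum of 13 MAGEA rows by -0.33 and -0.25. Without the 6 rows, EDN1 and ALPP are the 2 genes that fell. The sums were chosen after the values were seen.

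Of the lower genes that did not pass the test, PTX3, PDE1C, ESM1, TLL1, CSRP2 and PDLIM2 share few words with other genes. Pentraxin 3 (PTX3), a soluble pattern receptor, had 85.1 and 44.7 CPM at 20% O2, 94.1 and 26.1 CPM at 1% O2, and 21.5 CPM after reoxygenation (edgeR adjusted p = 0.0863). ESM1, an endothelial proteoglycan, had 36.0 and 20.2 CPM at 20% O2, 42.1 and 7.29 CPM at 1% O2, and 9.32 CPM after reoxygenation (0.122). For both, as for the phosphodiesterase PDE1C at 52.0, 28.2 and 13.0 CPM (0.0876), the 20% O2 library of day 10 already lay below that of day 1. TLL1, a metalloprotease, was counted 54, 48 and 6 times (0.17), with no such step between the 20% O2 libraries.

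**Figure D4:**
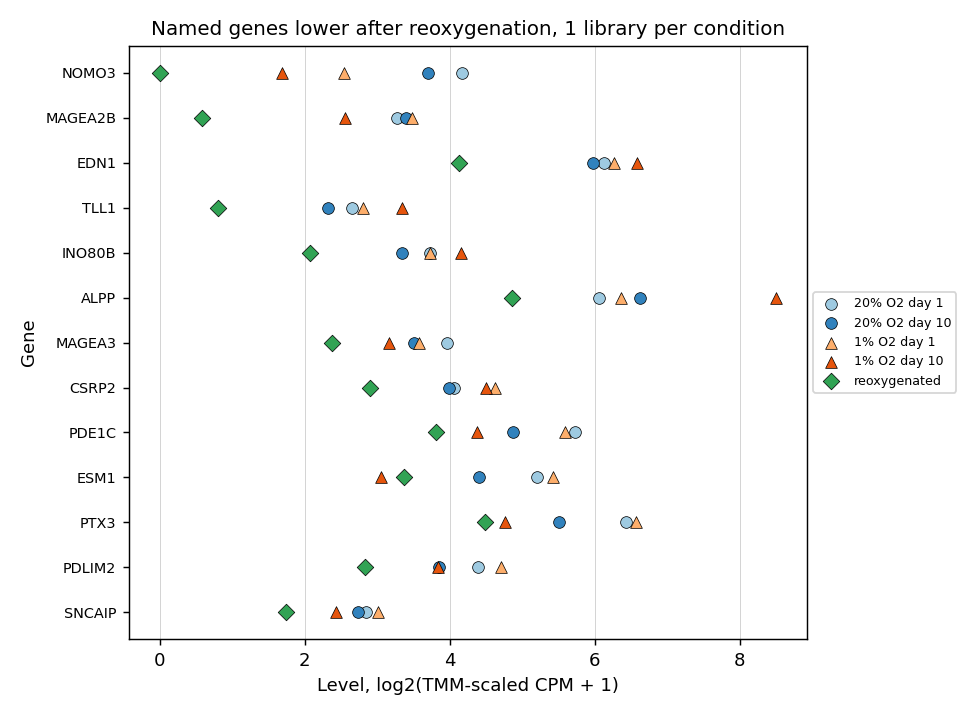
Level in each of the 5 libraries, log2(CPM + 1), of the 13 named genes called lower. Reoxygenated cells (green diamonds) lie left of both 20% O2 libraries (blue circles) for every gene and left of both 1% O2 libraries for every gene but ESM1. INO80B, NOMO3, MAGEA3 and MAGEA2B share 62.3% to 90.4% of their words with another gene, so their own rows are uncertain. Summed with WBP1 and their joined row, INO80B differed by 0.05 from each 20% O2 library, and MAGEA3 summed with MAGEA6 by -0.35.

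Growth-related lists lay slightly low, with no gene called. Of all genes compared, 47.9% lay below both 20% O2 libraries, and 30.4% when scaled by library totals. All 56 ribosomal protein genes were below both, with a median difference of -0.38, and 51 of 56 were when scaled by library totals. For DNA replication 38 of 43 (88.4%) lay below both, with a median of -0.30, and with library totals 33 of 43. For nuclear genes of oxidative phosphorylation 45 of 54 (83.3%) lay below both, but 21 of 54 (38.9%) with library totals, beside 30.4% of all genes. The ribosomal median was -0.23 between the 20% O2 libraries. Mitosis genes had a median of -0.09, close to that of all genes, and the proliferation marker MKI67 had 754.6, 837.0 and 763.0 CPM (edgeR adjusted p = 0.964).

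These differences went along with level. The median difference was 0.10 for the 1629 genes with a mean under 10 CPM and -0.29 for the 584 with a mean of 300 CPM or more, of which 75% lay below both 20% O2 libraries. The reoxygenated library was also the one with the fewest counts. The part of level and depth in the differences of these lists was not tested.

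Other lists had at most 1 gene called. BMF was called higher among 20 BCL2 family and death receptor genes (5.0%, beside 0.501% of all genes). ABCC2, an efflux transporter, was called higher among 27 antioxidant (3.7%) and 11 drug efflux genes (9.09%). NQO1, an antioxidant enzyme, had 201.4 and 143.7 CPM at 20% O2, 23.4 CPM after 10 days at 1% O2 and 243.8 CPM after reoxygenation (edgeR adjusted p = 0.273). Among 24 TGF-beta, BMP and ID genes GDF15 was called (4.17%), while ID1 and ID3 lay between the 20% O2 libraries, with ID1 at 72.2, 148.6 and 86.7 CPM (0.757). No gene was called among 21 immediate early, 22 YAP/TEAD target, 31 lipid synthesis, 19 mesenchymal and epithelial, 17 DNA methylation and polycomb, 13 immune ligand, 10 metal-handling and 9 oxygen-sensing genes. Nor was any called among the identity and luminal markers, where VIM had 2229, 1595 and 1097 CPM (edgeR adjusted p = 0.201) and CAV1 749.4, 444.1 and 323.1 CPM (0.253), each in the order of 20% O2 day 1, 20% O2 day 10 and reoxygenated.

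**Figure D5:**
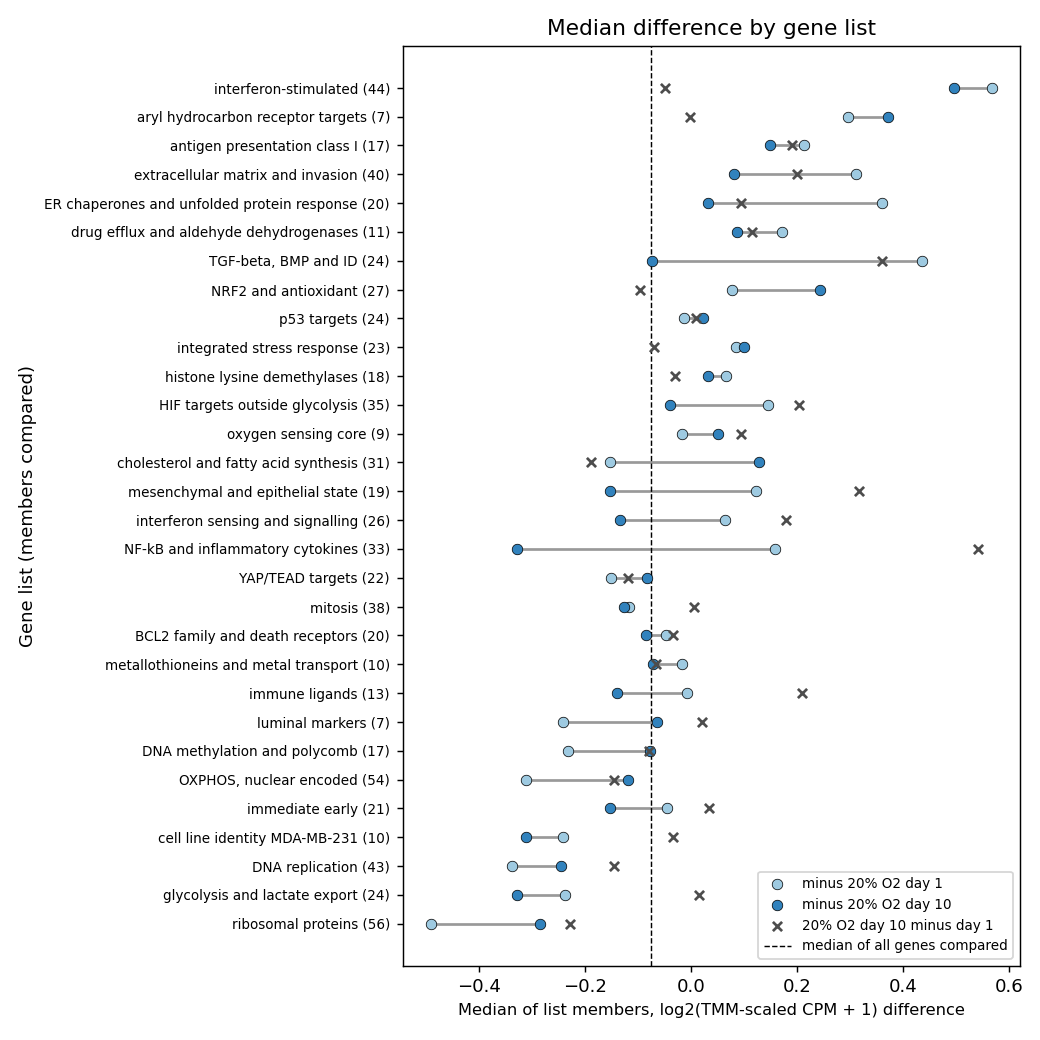
Median difference, in log2(CPM + 1), of the members of each gene list with 7 or more genes compared, from the 20% O2 library of day 1 (light points) and of day 10 (dark points), with crosses for the 20% O2 day 10 library minus day 1. The dashed line is the median of all genes, -0.07; interferon-stimulated genes lie at 0.57 and 0.50 with their cross at -0.05, and ribosomal proteins lie at -0.49 and -0.29 with their cross at -0.23.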

How the data were processed

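RNA was measured in 5 libraries of MDA-MB-231 cells, and 3 of them entered the comparison. Per the labels' protocols, libraries were made with an mRNA kit. The submitters' processing notes name the hg38 build, RSEM 1.2.15, Bowtie2 2.1.0 and edgeR. Annotation and strand setting are not given in the sources. The authors deposited expected counts (estimated counts per gene symbol, 3.58% to 4.09% of them not whole) and a normalized signal, which per its name and values is CPM with TMM factors applied. Of the deposited signal values, 100% were whole multiples of 1 read, within 0.001 reads. Symbols of 28 rows had become dates.

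Differences were taken on log2(CPM + 1), which understates changes of low genes. Expected counts were rounded and tested with edgeR 4.0.16 (R 4.3.3) by its quasi-likelihood test, with TMM factors of 0.981, 0.991 and 1.03 and 1 residual degree of freedom; the common dispersion was 0.0181. Each SE printed was computed back from that test, as the size of the log2 change divided by the square root of the F statistic. DESeq2 1.42.0 and limma 3.58.1 were alternatives, as were other pseudocounts, filters, scalings and single 20% O2 libraries. The test and the size rule were also checked on simulated data with changes placed in some genes. Changes were placed only in well-counted genes, and all libraries were drawn as replicates, with no time difference between those at 20% O2. At a dispersion of 0.0181 edgeR found 62% of 2-fold changes and made 5 false calls. The size rule found 23% and made 1 false call. A 2-fold change lies at the limit of that rule, so a low share was built in. Each found 100% of 4-fold changes. These shares do not cover genes of few counts, and 28 of the genes called higher had a mean under 10 CPM. Intervals are exact Clopper-Pearson 95% intervals of count ratios. They cover counting error only, and reads carried no molecular identifiers. RefSeq tables (GRCh38.p14) gave coordinates of 760 of the 761 genes of the tables from which values are printed, and promoters. Sharing of sequence was measured in 31-base words of GENCODE transcripts.

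Named genes were the 15 highest and 15 lowest called genes by the difference from the nearer 20% O2 library, of which 13 lower genes qualified; joined, antisense, small RNA, pseudogene and uncharacterized symbols were left out. The 5 lowest p per direction, up to 4 genes per list and a fixed panel were added, and other genes that passed or were called are named as members of a small count. The members, the 31 gene lists and the markers DDX60, IFIT1, CYP1B1 and GDF15 were chosen with earlier results of these data known.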

Additional observations from a re-analysis of the deposited data

How the results depend on the processing

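Counts of calls depended on the scaling, the pseudocount and the 20% O2 library used. Genes called higher numbered 56, and 25 with a pseudocount of 4, 86 with library totals and 273 with a 1.5-fold rule. Genes called lower numbered 18, and 7, 11 and 145 under the same settings, and 9 without rows that share at least 50% of their words with another gene, an alternative chosen after seeing the data. Against a single 20% O2 library, leaving out the other, 77 to 239 genes were higher and 35 to 70 lower, with the larger counts against day 1. In edgeR's test 38 genes rose, and 102 with library totals and 245 with no filter on low counts. The number that fell was 8, and 13 with library totals, 96 with no filter, 4 with limma-voom and 2 without the rows that share words. The cause was not tested, other than that rows were removed or added. DESeq2 called 31 and 10, limma-voom 37 that rose, and a fit of all 5 libraries 31 and 6. DESeq2 size factors gave 72 higher and 12 lower. Among interferon-stimulated genes 8 to 13 were called higher over the 6 alternatives run, with a median of 0.43 to 0.67. For a called gene the size rule fixes the sign against each 20% O2 library. A single 20% O2 library or a pseudocount of 4 therefore could not change it. Library totals moved the median of all genes only from -0.07 to 0.07, and no named difference of a called gene changed sign there. No paired analysis was possible because each condition had 1 library. At this depth 3 counts in the reoxygenated library were 0.368 CPM, so genes of a few CPM were compared with wide intervals.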

Other observations

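Some genes with roles in antiviral defence, outside the lists and chosen because they were called higher, are given as values only. APOBEC3F and APOBEC3G, cytidine deaminases that restrict retroviruses, had 6.15 and 4.49 CPM at 20% O2 on day 1, 6.91 and 3.75 CPM on day 10, and 17.8 and 12.8 CPM after reoxygenation. Both were called higher, and the edgeR adjusted p values were 0.0562 and 0.0836. The pair share sequence, with 31.9% of the words of APOBEC3F found in another gene, and their sum differed by 1.44 from each 20% O2 library. GBP4, a guanylate-binding protein, had 2.83, 3.83 and 10.1 CPM in the order of 20% O2 day 1, 20% O2 day 10 and reoxygenated (edgeR adjusted p = 0.153). SLFN5, a Schlafen family gene, had 4.39, 15.8 and 36.7 CPM (0.121), so that both 20% O2 libraries differed as well.

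A few single genes that lay below both 20% O2 libraries without being called were also chosen for their low values, so that their shared direction is fixed by the choice, and 47.9% of all genes compared lay below both. ODC1, the first enzyme of polyamine synthesis, had 424.9 and 422.5 CPM at 20% O2, 115.5 CPM after 10 days at 1% O2 and 223.9 CPM after reoxygenation (edgeR adjusted p = 0.0777). CCDC86 and MRTO4, nucleolar proteins, had 58.3 and 66.8 CPM after reoxygenation against 100.3 to 128.8 CPM at 20% O2 (0.0935 and 0.121). JUN, an AP-1 factor, had 114.8, 107.8 and 58.3 CPM (0.0707) and was near its 20% O2 level in both 1% O2 libraries, at 137.9 and 120.6 CPM.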
